A study of Homo sapiens with 1536 samples.

Results

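Inhibitors of the receptor tyrosine kinases EGFR and HER2 were compared in a pooled growth screen of breast cancer cell lines. The 6 compounds are all those whose listed target includes EGFR, out of 180 compounds in the screen, of which 8 were not fitted (6 with too few reads among them). Erlotinib, Gefitinib and Lapatinib bind the kinase reversibly, and Afatinib, Neratinib and Canertinib form a covalent bond with it. Each compound was given for 72 h at 10 nM, 100 nM, 1000 nM and 10000 nM in 2 replicate wells, which makes 48 of the 1536 wells of the screen, beside 96 wells with DMSO. Every well, DMSO included, held the same pool of 5 cell lines, SKBR3 (HER2+), ZR-75-1 (ER+), BT-20, HCC-38 and MDA-MB-231 (triple negative). All cells carried Cas9 under a doxycycline-inducible promoter, kept on by 100 ng/mL doxycycline for 7 days before treatment, and each line was itself a mixture of 12 sgRNA populations.

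EGFR and HER2 (ERBB2) belong to the same receptor family. HER2 has no known ligand of its own and signals as a dimer with other family members, and its gene is amplified in HER2+ breast cancer, of which SKBR3 is a widely used model. BT-20 is known for an amplified EGFR gene. Erlotinib and Gefitinib are selective for EGFR, Lapatinib inhibits EGFR and HER2, and the covalent compounds, which react with a cysteine at the edge of the ATP pocket, inhibit several members of the family. No RNA or protein was measured in these wells, so the receptor status of the lines was not checked here.

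The identity of a cell was read from its DNA: an 8 nt cell line barcode and a 20 nt sgRNA barcode were amplified together and counted. The cell line barcodes are shown because every comparison between lines rests on telling them apart, with up to 1 mismatch allowed. Capitals mark the bases that differ from the nearest other barcode.
SKBR3: CGGTgaCC
BT-20: atTGTCAA
ZR-75-1: ATcaCTgg
HCC-38: TAcaGAgg
MDA-MB-231: TAACAGtt
Standards: GCtgGATT
The closest pair among the 5 lines, ZR-75-1 and HCC-38, differed at 4 positions, and the barcode of SKBR3 differed from those of the other lines at 6 to 8. The barcode of the standards marked spiked-in human embryonic kidney cells, whose 5 known cell numbers turned reads into cells in each well. The relative cell number is the number of cells of a line and sgRNA as a percent of the median over the DMSO wells. Unless stated otherwise, it was averaged over the 12 sgRNAs of a line (10 in ZR-75-1).

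The 48 wells held 157636 to 1545202 reads, and 7139 to 649332 reads per line, so that the counting error of reads was small beside the spread between wells. Error from the number of cells sampled was not tested. The DMSO wells averaged 100.9% to 101.8% in the 5 lines, with an SD over the 96 wells of 12.7% in SKBR3, 14.3% in ZR-75-1 and 10.6% to 10.9% in the other lines. Both wells of a compound and dose came from 1 dilution of the compound, so their spread may be technical. By the order of the sequencing sample numbers, all wells of the reversible compounds lay on plates 1 to 8 and all wells of the covalent compounds on plates 9 to 16, and each dose lay on plates of its own. Class and plate set therefore cannot be told apart, and values relative to the DMSO wells of the same plate are given where they bear on a result.

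All 6 inhibitors lowered the cell number of SKBR3, and the covalent compounds brought it below 50% of DMSO at lower doses. Afatinib left 36% and 34% of the SKBR3 cells in the replicate wells at 100 nM, 24% and 25.8% at 1000 nM and 14.2% and 9.4% at 10000 nM, after 73.1% and 97% at 10 nM. Neratinib left 95.5% and 90.9% at 10 nM, 71.5% and 65.2% at 100 nM, 28.6% and 23.2% at 1000 nM and 21.1% and 19.8% at 10000 nM. Canertinib left 92.3% and 89.8%, 69.5% and 71.9%, 40.2% and 40.8%, and 24.5% and 22.4% at the same doses. At 100 nM both wells of each covalent compound lay below both wells of each reversible compound, and Afatinib was the lowest by a wide margin. Lapatinib, the reversible inhibitor with HER2 among its targets, left 93.3% and 90.7% at 10 nM, 80.9% and 79.3% at 100 nM, 48.8% and 49.7% at 1000 nM and 19.7% and 14.8% at 10000 nM. Gefitinib left 90.2% and 78.5%, 101.1% and 85.5%, 60.4% and 71.4%, and 32% and 32.6%. Erlotinib left 119.2% and 115.2%, 88.8% and 89.5%, 91.5% and 83.8%, and 38.3% and 37.4%. The lowest dose that passed the test against DMSO (limma) was 10 nM for Gefitinib (adjusted p = 0.0352) and Afatinib (0.0456), 100 nM for Lapatinib, Neratinib and Canertinib and 10000 nM for Erlotinib, and Gefitinib did not pass at 100 nM (0.40). The EGFR-selective pair kept the most SKBR3 cells at 1000 nM, with Erlotinib close to the DMSO level there, and at 10000 nM Lapatinib lay within the range of the covalent compounds.

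**Figure D1:**
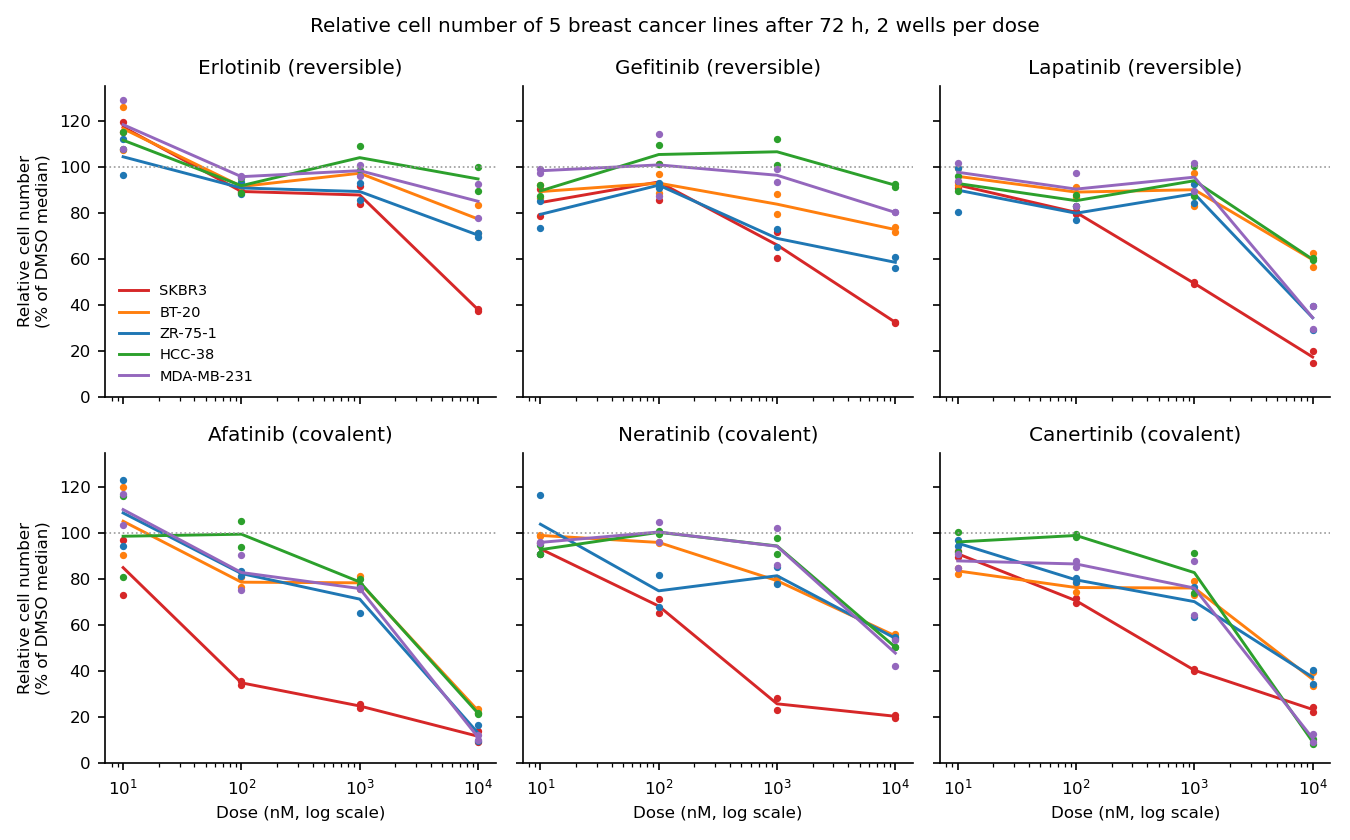
Relative cell number (percent of the DMSO median, averaged over sgRNAs) against dose (nM, log axis) for the 6 inhibitors in each of the 5 lines, with a point for each replicate well and a line through the means. In SKBR3, Afatinib stands at 36% and 34% at 100 nM while Erlotinib is still at 91.5% and 83.8% at 1000 nM, and in the other lines the gap between the covalent and the reversible compounds is widest at 10000 nM.

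Over the lines and doses together, 61 of the 120 mean values fell below DMSO at an adjusted p under 0.05 (limma). Over all compounds fitted, 37% of the values were lower by the same rule. Some of these were given over a lower dose range, so comparisons with all compounds, here and below, go by dose level and not by concentration. The members' count went up with dose, from 4 of 30 at 10 nM to 12, 17 and 28 of 30 at the higher doses. By line it was 17 of 24 for SKBR3, 15 for ZR-75-1, 13 for BT-20, 9 for MDA-MB-231 and 7 for HCC-38, and by compound 15 of 20 for Afatinib, 14 for Canertinib, 10 for Neratinib, 9 each for Gefitinib and Lapatinib and 4 for Erlotinib. The 37% covers all doses and lines together. Shares over all compounds at each dose or in each line were not computed, so the counts by dose and by line are descriptive. At 10 nM Erlotinib lay above DMSO, by 15.2 percentage points in BT-20 (125.7% and 107.2%; adjusted p = 0.0375), 16.7 in MDA-MB-231 (128.8% and 107.6%; adjusted p = 0.0351) and 16.3 in SKBR3 (adjusted p = 0.0397). Against the DMSO wells of the same plate these differences were 12.6, 13.6 and 9.06, with adjusted p = 0.106, 0.120 and 0.290 (limma), and against all DMSO wells the adjusted p was 0.142 to 0.195 on the log2 scale and 0.0524 to 0.118 with edgeR, so the rise was not called under these settings. Replicate wells differed most at this dose, and the Afatinib well with 120.1% in BT-20 and 116.3% in HCC-38 also had the highest estimated share of swapped barcodes (10.4%, against a median of 1.49%). In the Erlotinib wells at 10 nM this share was 5.61% and 5.38%. The replicate 2 well of Gefitinib at 10 nM had a like share (5.40%), with values from 73.4% in ZR-75-1 to 99% in MDA-MB-231. With swapped barcodes corrected for, none of the inhibitors' values was called above DMSO. The part of well spread or swapped barcodes in the low-dose values was not tested further.

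At 10000 nM the order of the compounds depended on the line. Afatinib left 23.8% and 22% in BT-20, 21.5% and 22% in HCC-38, 12.4% and 10.3% in MDA-MB-231 and 16.7% and 9.7% in ZR-75-1. Canertinib left 39.5% and 33.6% in BT-20 and 40.6% and 34.3% in ZR-75-1, but 10.6% and 8.2% in HCC-38 and 12.6% and 9.2% in MDA-MB-231. Neratinib left 54.3% and 56.4% in BT-20, 50.5% and 50.5% in HCC-38, 53.4% and 42.4% in MDA-MB-231 and 53.9% and 54.7% in ZR-75-1. Outside SKBR3, then, Neratinib lay nearer to Lapatinib than to the other covalent compounds at this dose in BT-20, HCC-38 and MDA-MB-231. Lapatinib left 62.5% and 56.5% in BT-20, 60.1% and 59.2% in HCC-38, 39.3% and 29.5% in MDA-MB-231 and 39.5% and 29.1% in ZR-75-1. Gefitinib left 73.5% and 71.7%, 92.6% and 91.2%, 80.1% and 80.1%, and 60.8% and 56% in these lines, and Erlotinib 83.1% and 71.3%, 100.0% and 89.2%, 92.2% and 77.6%, and 70.9% and 69.5%. In HCC-38 neither of the EGFR-selective compounds passed the test against DMSO at any dose (adjusted p = 0.259 for Gefitinib and 0.439 for Erlotinib at 10000 nM, limma). BT-20, the line with amplified EGFR, kept at least 71.3% of its cells in each well of both EGFR-selective compounds at the highest dose.

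The dose at which the cell number crossed 50% of DMSO, read by straight-line interpolation on the log dose scale, was lowest in SKBR3 for every compound. In SKBR3 it was 50.2 nM for Afatinib (41.9 and 55.8 nM in the replicates), 270.6 nM for Neratinib (316.7 and 230.4), 484.1 nM for Canertinib (461.5 and 506.4), 944.1 nM for Lapatinib (916.3 and 975.1), 2976 nM for Gefitinib (2326 and 3564) and 5697 nM for Erlotinib (6016 and 5353). The replicates of neighbours in this order did not overlap. In the other lines Afatinib crossed 50% at 2330 to 3252 nM and Canertinib at 2519 to 4579 nM. Lapatinib crossed it at 5112 nM in ZR-75-1 and 5544 nM in MDA-MB-231, and Neratinib at 9015 nM in MDA-MB-231 by the mean of its wells, of which only replicate 2 crossed it (6710 nM), while Gefitinib and Erlotinib did not cross it within the doses given.

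Steps between adjacent doses showed where each curve bent. Of 90 steps, 28 were downward at an adjusted p under 0.05 (limma), against 20.7% over all compounds. That share pools all lines and steps and was not computed for each. In SKBR3 10 of 18 steps passed, and they were spread over the range. Afatinib fell by 50.1 percentage points from 10 to 100 nM (adjusted p = 2.08e-06), Neratinib fell by 24.9 over the same step (0.0398) and by 42.5 from 100 to 1000 nM (7.62e-05), and Canertinib fell by 30.2 from 100 to 1000 nM (0.00817). Lapatinib and Gefitinib passed at both upper steps, and Erlotinib at the lowest step, which starts from its raised 10 nM values, and at the highest, where it fell by 49.8 (2.34e-06). In the other lines 15 of the 18 downward steps led from 1000 to 10000 nM and none led from 100 to 1000 nM. With 1 of the replicate wells left out, 19 steps (without replicate 1) or 17 (without replicate 2) passed.

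The response over all doses was summed as an area under the curve (AUC), the highest and lowest dose weighted by 0.5 and those between by 1, so that an untreated level gives 300. SKBR3 had the lowest AUC of the 5 lines for all 6 compounds. In SKBR3 the AUC of the replicates was 103.6 and 113.1 for Afatinib, 158.4 and 143.8 for Neratinib, 168.04 and 168.82 for Canertinib, 186.1 and 181.8 for Lapatinib, 222.7 and 212.4 for Gefitinib and 259.01 and 249.61 for Erlotinib. The covalent compounds lay below all reversible ones, and no replicate overlapped with the neighbour in this order. Among all compounds fitted Afatinib stood at rank 18 from the lowest SKBR3 AUC, and Erlotinib, at rank 78, lay near the median of 258.2.

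**Figure D2:**
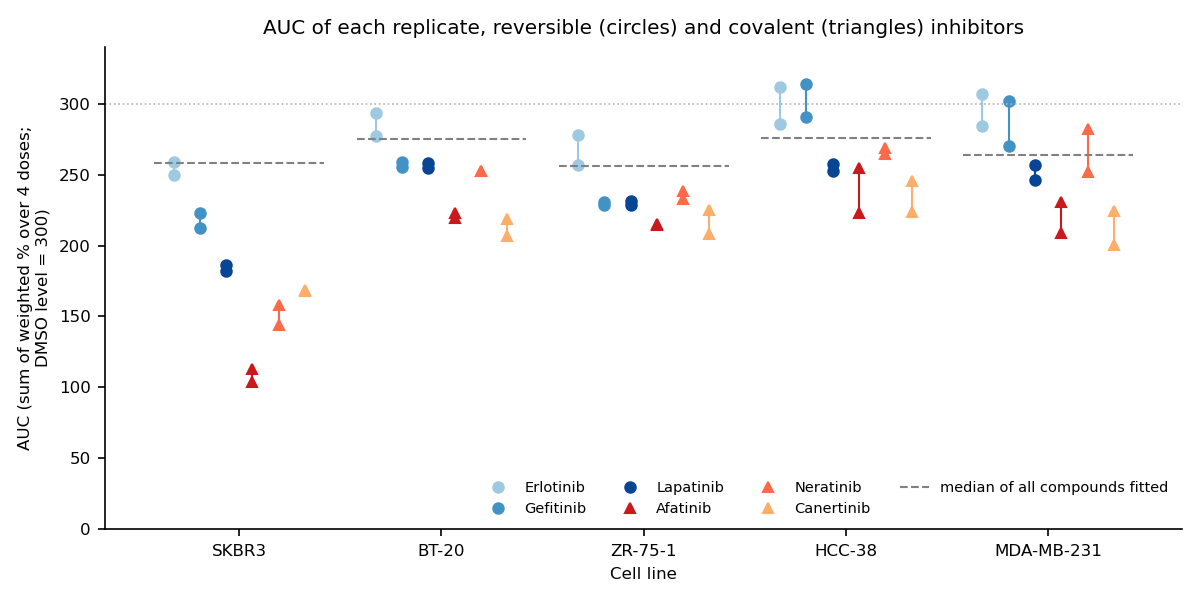
AUC of the relative cell number (untreated level 300) for each of the 6 inhibitors in the 5 lines, with a point for each replicate and a vertical line joining them. The dashed bar in each line is the median of all compounds fitted. In SKBR3 the means run from 108.4 for Afatinib to 254.3 for Erlotinib, while in ZR-75-1 they run only from 214.9 to 267.1.

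Whether SKBR3 responded more than the rest was tested for each compound as the AUC of a line minus the mean of the other 4 lines. Afatinib gave -115 in SKBR3 (adjusted p = 0.000126, limma), Neratinib -104 (0.000126), Lapatinib -64.3 (0.000248), Gefitinib -51.2 (0.00589) and Canertinib -50.7 (0.00529). Erlotinib gave -32.3 and missed the threshold (adjusted p = 0.0517), but passed with the replicate number as a block (0.00124), which removes what the lines of a well share. With sgNT alone the calls of Gefitinib, Lapatinib and Canertinib were lost (adjusted p = 0.287, 0.192 and 0.0635), that of Gefitinib also with replicate 1 or 2 left out (-48.8 and -53.7) and that of Canertinib without replicate 1 (-40.97), while those of Afatinib and Neratinib held under all 12 alternative settings. The SKBR3 difference was lower at an adjusted p under 0.05 for 18% of all compounds, with a median of -11.0 over the compounds fitted and of -57.8 over the 6 inhibitors. Among all compounds Afatinib stood at rank 2 and Neratinib at rank 3, behind RITA (-135). Methotrexate (-71.4) and the AKT inhibitor AZD5363 (-68.1) stood between Neratinib and Lapatinib, and Rigosertib (-62.9) and APY29 (-58.6) between Lapatinib and Gefitinib.

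**Figure D3:**
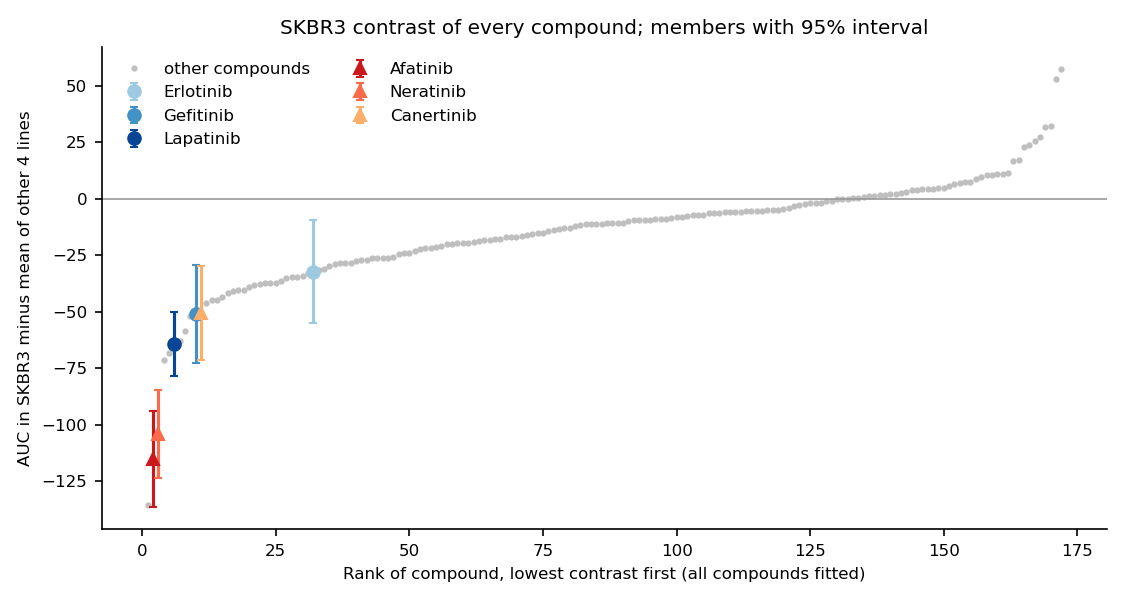
SKBR3 AUC minus the mean AUC of the other 4 lines (vertical axis) for all compounds fitted, ordered by this difference, with the 6 inhibitors marked and named. Afatinib (-115) and Neratinib (-104) stand at ranks 2 and 3, and Erlotinib (-32.3) at rank 32.

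In the other lines the differences mostly ran upward, which is partly built in, since the 5 differences of a compound sum to 0. Over the 5 lines 15 of 30 differences passed in either direction (limma), against 21.7% over all compounds. HCC-38 was higher than the other lines with Gefitinib (54.7), Afatinib (47.6), Neratinib (40.01), Canertinib (32.2) and Lapatinib (24.7), and MDA-MB-231 with Neratinib (40.4), Gefitinib (34.4) and Lapatinib (20.2). BT-20 was higher with Lapatinib (26.3). ZR-75-1 was lower with Gefitinib only (-36.3; adjusted p = 0.0258), at rank 14 and behind, among others, RITA, the estrogen receptor antagonists Fulvestrant and 4-hydroxytamoxifen, Alisertib and Bexarotene. BT-20 was not lower than the other lines with any of the inhibitors at this threshold, and its differences with the EGFR-selective compounds were -1.54 (Gefitinib, adjusted p = 0.937) and 6.45 (Erlotinib, 0.734). With sgNT alone only 2 differences passed, those of Afatinib and Neratinib in SKBR3, so none of the calls in the other lines held. With the replicate block 22 differences passed. The share over all compounds also rose with the block, so the 21.7% above does not apply to this count. Fewer differences passed with a replicate of the inhibitors left out, which leaves a single well per dose.

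The same difference taken at each dose, a test added after the AUC values were seen, put the 30 of 120 values that passed (11.9% over all compounds) in an order by compound. At 100 nM SKBR3 was lower than the other lines with Afatinib (by 50.9 percentage points), Neratinib (24.6) and Canertinib (14.8), which are the covalent compounds. At 1000 nM Lapatinib (42.6) and Gefitinib (22.9) joined them, beside Neratinib (61.5), Afatinib (51.2) and Canertinib (35.9). At 10000 nM Erlotinib (43.9), Gefitinib (43.4), Neratinib (31.6) and Lapatinib (29.7) passed. The SKBR3 difference of Afatinib was then -5.52 (95% interval -13.0 to 1.95) and that of Canertinib -0.15 (-7.89 to 7.59). With Canertinib at this dose HCC-38 and MDA-MB-231 were the lower lines, by 17.7 and 15.8 percentage points, and ZR-75-1 and BT-20 the higher ones, by 17.4 and 16.2. At 10 nM the SKBR3 difference with the smallest adjusted p was that of Afatinib (-20.7; 0.430).

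The covalent class had a lower AUC than the reversible class in each line. In SKBR3 the mean AUC was 142.6 ± 30.9 for the covalent and 218.6 ± 35.2 for the reversible compounds (SD over 3 compounds), a difference of -76.0 with a 95% interval over wells of -92.2 to -59.7 (adjusted p = 1.94e-16, limma). The difference was -44.7 (-61.3 to -28.1) in MDA-MB-231, -38.7 (-55.5 to -21.9) in HCC-38, -37.5 (-51.9 to -23.1) in BT-20 and -19.8 (-39.5 to -0.13) in ZR-75-1. These intervals carry the spread between wells alone. With compounds as the replicates of a class, an exact two-sided permutation test of 3 against 3 can give no p below 0.1, and gave 0.1 in SKBR3 and BT-20, 0.2 in HCC-38 and MDA-MB-231 and 0.3 in ZR-75-1. Against same-plate DMSO wells the differences were -74.0 in SKBR3, -48.1 in MDA-MB-231, -36.5 in BT-20, -35.1 in HCC-38 and -15.6 in ZR-75-1, the last of which no longer passed (adjusted p = 0.158). Whether the class difference was larger in SKBR3 than elsewhere was tested over compounds, a test added after the values were seen. SKBR3 minus the other lines was -90.1 ± 34.6 for the covalent and -49.3 ± 16.1 for the reversible compounds, a difference of -40.8 (exact permutation p = 0.3).

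The gap between the classes opened at different doses in different lines. In SKBR3 it was -29.5 percentage points at 100 nM (adjusted p = 1.22e-08, limma), -37.2 at 1000 nM (2.04e-13) and -10.6 at 10000 nM (0.0319), where the reversible compounds left 29.1% ± 10.7 of the cells (SD over 3 compounds). In BT-20, HCC-38 and MDA-MB-231 it did not pass the test at 100 nM, and was -12.2, -16.0 and -14.4 at 1000 nM, and -31.5, -54.8 and -43.0 at 10000 nM. In ZR-75-1 it passed only at 10000 nM (-19.3). At 10 nM the smallest adjusted p was 0.189. These p-values take wells as the replicates, and compound means of the classes overlapped for the gaps at 10000 nM in SKBR3, ZR-75-1 and MDA-MB-231 and at 1000 nM in HCC-38.

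**Figure D4:**
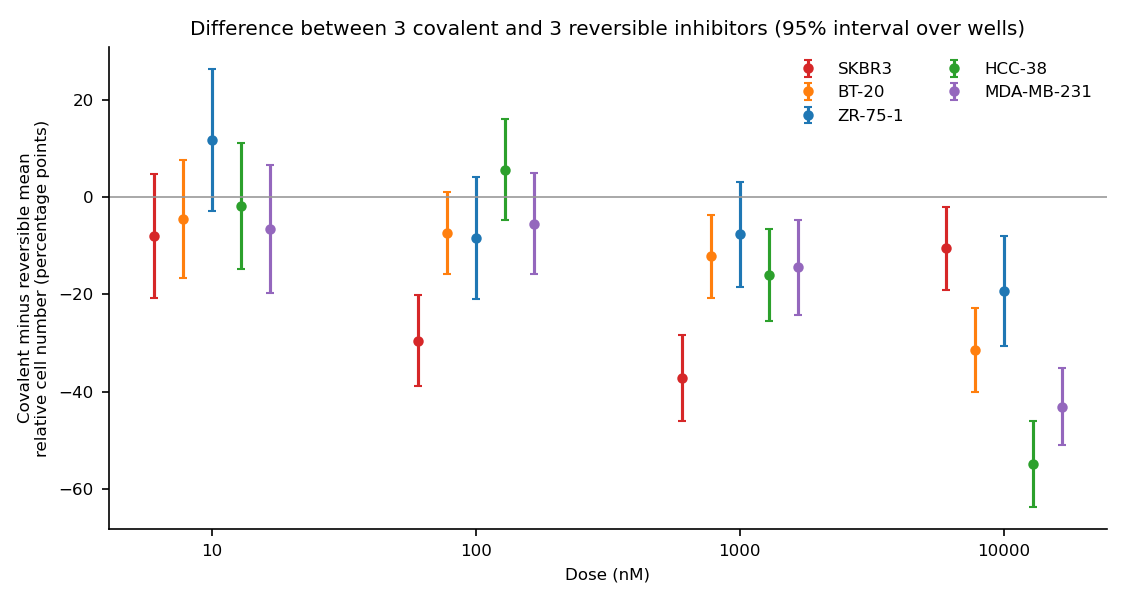
Mean of the 3 covalent minus mean of the 3 reversible inhibitors (percentage points of relative cell number) at each dose (nM, log axis) in the 5 lines, with 95% intervals over wells. The SKBR3 difference is largest at 1000 nM (-37.2) and the HCC-38 difference at 10000 nM (-54.8).

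All 15 pairs of compounds were compared in each line at matched doses and times, with p-values adjusted over the 75 AUC comparisons. In all 42 differed (limma), 13 of 15 in SKBR3, 11 in BT-20, 9 in MDA-MB-231, 7 in HCC-38 and 2 in ZR-75-1. Between the classes 27 of 45 comparisons passed, within the covalent class 6 of 15 and within the reversible class 9 of 15. Adjusted over all pairs of compounds in the screen, 47 of the 75 passed, against 67.3% of all such comparisons, a share not computed by line. The largest difference of each line was Afatinib minus Erlotinib in SKBR3 (-146; 95% interval -174 to -118) and ZR-75-1 (-52.2; -86.2 to -18.1), Canertinib minus Gefitinib in HCC-38 (-67.6), and Canertinib minus Erlotinib in MDA-MB-231 (-83.1) and BT-20 (-72.6). Of these, only Afatinib minus Erlotinib in SKBR3 passed under all 13 alternative settings, the others were lost with sgNT alone (adjusted p of 0.0502 to 0.481, limma), and that in ZR-75-1 also with all 12 sgRNAs (-41.2) and without replicate 1 (-41.1). With fewer wells the count fell to 17 (without replicate 1) and 26 (without replicate 2).

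Gefitinib and Canertinib are built on the same quinazoline, with the same chloro-fluoro aniline and morpholinopropoxy chain, but Canertinib carries an acrylamide, the group that reacts with the cysteine, and Gefitinib a methoxy group, and the chain sits at a different position of the quinazoline. Canertinib had the lower AUC in SKBR3, by 49.1 (95% interval of the difference -77.3 to -20.9; adjusted p = 0.00243, limma), and likewise in BT-20 (-44.6), HCC-38 (-67.6) and MDA-MB-231 (-73.8). In ZR-75-1 the difference was -12.9 (-46.9 to 21.2). In SKBR3 the pair differed at 100 nM (-22.6 percentage points; adjusted p = 0.0312) and 1000 nM (-25.4; 0.00828), and in the triple-negative lines mainly at 10000 nM, by -36.1 in BT-20, -69.1 in MDA-MB-231 and -82.5 in HCC-38. With sgNT alone none of the 4 AUC calls held (adjusted p of 0.0502 to 0.286, limma), and that in SKBR3 was also lost without replicate 1 (-43.6) and that in BT-20 without replicate 2 (-40.6).

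Lapatinib and Neratinib share an aniline extended by an arylmethoxy group, and Neratinib adds a reactive butenamide on a cyanoquinoline core. Neratinib was lower in SKBR3, by 32.9 in AUC (-61.0 to -4.67; adjusted p = 0.0423, limma). This call was lost under 4 of 13 alternative settings, with sgNT alone (adjusted p = 0.601), same-plate DMSO wells (0.0682) and replicate 1 or 2 left out (0.181 and 0.271). At single doses the pair differed only at 1000 nM in SKBR3 (-23.3 percentage points; adjusted p = 0.0175). In the other lines the AUC differences lay between -3.87 and 15.3, with intervals that together reach from -28.8 to 44.1 and so allow a difference in either direction. Afatinib carries the same dimethylaminobutenamide as Neratinib on a quinazoline with a smaller aniline. Neratinib had the higher AUC in SKBR3 (42.7; 14.5 to 70.9), BT-20 (31.4; 6.47 to 56.2) and MDA-MB-231 (47.1; 18.3 to 75.9), while the differences of 27.9 in HCC-38 (-1.13 to 56.9) and 20.8 in ZR-75-1 (-13.3 to 54.8) did not pass. At 10000 nM Neratinib left more cells than Afatinib, by 28.7 to 41.2 percentage points in the lines other than SKBR3, and by 8.68 in SKBR3, which did not pass (adjusted p = 0.447, limma). The 3 AUC calls of this pair were lost with sgNT alone, where the difference in MDA-MB-231 turned to -16.4 (adjusted p = 0.817, limma), and without replicate 1 (21.1 in MDA-MB-231, 30.7 in SKBR3 and 29.3 in BT-20), the last also without replicate 2 (33.4).

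Afatinib and Canertinib share the chloro-fluoro aniline and differ in the reactive amide and in the second side chain. They differed in SKBR3 only, where Canertinib was higher by 60.1 in AUC (31.9 to 88.2; adjusted p = 0.000174, limma) and by 35.7 percentage points at 100 nM. Of 13 alternative settings only sgNT alone ended this call (43.5; adjusted p = 0.473). In the other lines the AUC difference lay between -8.54 and 1.74, and the widest interval, in ZR-75-1, ran from -32.3 to 35.8. Erlotinib and Gefitinib, the EGFR-selective pair, differ in the aniline and the side chains. Gefitinib was lower in SKBR3 (-36.8; -64.9 to -8.58) and BT-20 (-28.0; -52.9 to -3.10). The call in BT-20 (adjusted p = 0.0495, limma) was lost under 7 of 13 alternative settings (adjusted p up to 0.817), among them sgNT alone, same-plate DMSO wells, the log2 scale and replicate 1 or 2 left out (-21.6 and -34.4), and the call in SKBR3 with sgNT alone and with replicate 1 or 2 left out (adjusted p of 0.129 to 0.278). The difference of -37.6 in ZR-75-1 just missed the threshold (adjusted p = 0.0512), and those in MDA-MB-231 (-9.32; -38.1 to 19.5) and HCC-38 (3.70; -25.3 to 32.7) did not pass. Lapatinib, with its larger aniline, was lower than Gefitinib in SKBR3 (-33.6), HCC-38 (-47.1) and MDA-MB-231 (-34.5) but not in BT-20 (-0.84; -25.7 to 24.04) or ZR-75-1 (0.45; -33.6 to 34.5). Of these calls that in MDA-MB-231 was lost under 6 of 13 alternative settings, with a difference of -0.17 for sgNT alone (adjusted p = 0.996, limma) and of -24.1 and -44.95 without replicate 1 and replicate 2, that in SKBR3 under 3 (-15.7 for sgNT alone, -30.6 and -36.6 with replicate 1 or 2 left out) and that in HCC-38 under 2 (-42.9 for sgNT alone, -33.3 without replicate 1).

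**Figure D5:**
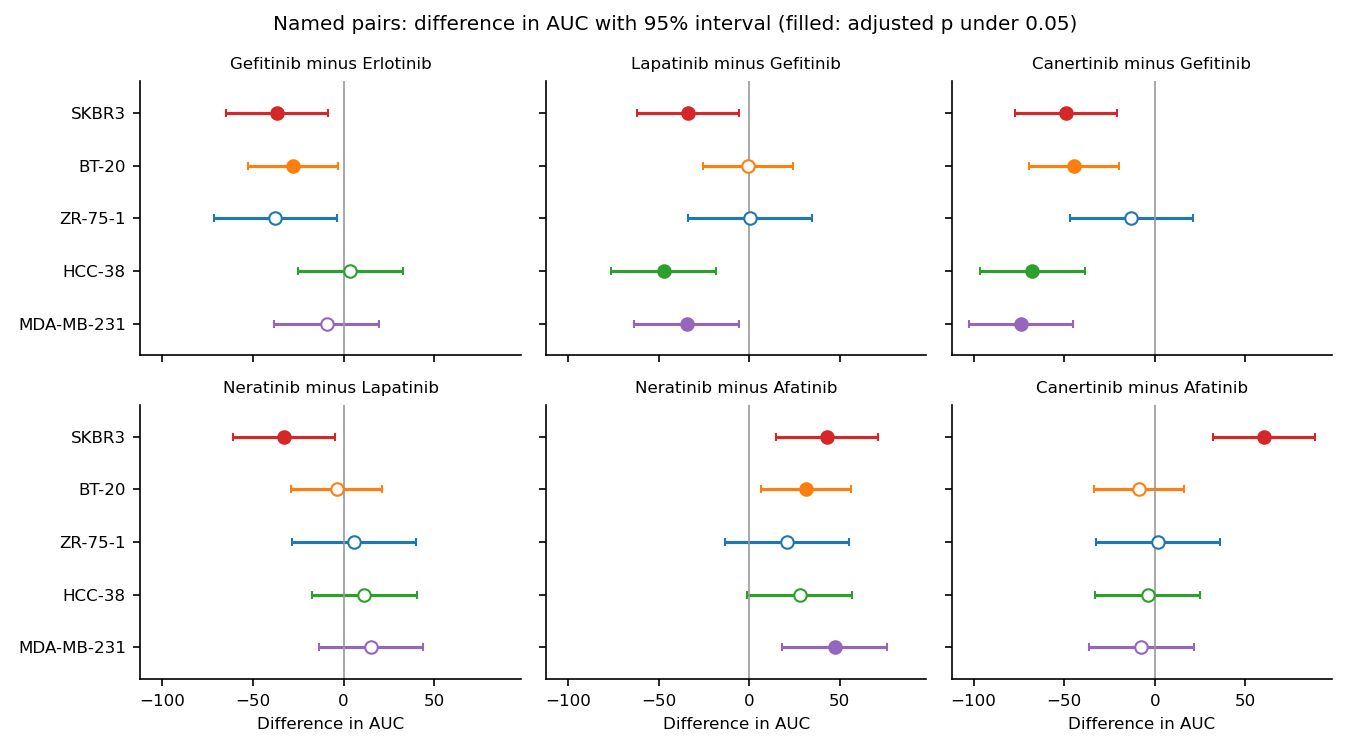
AUC difference with its 95% interval (horizontal axis) in the 5 lines for 6 pairs of inhibitors that share named parts of their structure, with filled points where the adjusted p was under 0.05. Canertinib minus Afatinib is away from 0 in SKBR3 alone (60.1), while Canertinib minus Gefitinib is below 0 in 4 lines.

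Dose by dose, 69 of 300 pair differences passed when adjusted over the 300 comparisons (limma), 5 of 75 at 10 nM, 8 at 100 nM, 16 at 1000 nM and 40 at 10000 nM. Adjusted over all pairs of compounds in the screen, 83 passed by the rule under which 45.1% of all such differences did, a share not computed by dose or line. SKBR3 held 7 of the 8 differences at 100 nM and 10 of the 16 at 1000 nM, but 3 of the 40 at 10000 nM. HCC-38 and MDA-MB-231 each held 12 at 10000 nM. Without replicate 1 the count was 43.

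As a description of which responses were most alike, the mean absolute difference over the 20 line and dose values was taken between each inhibitor and every other compound, all of which share the DMSO wells. Lapatinib and Neratinib were nearest to each other, at 8.10 percentage points, and the compound nearest to Afatinib was Canertinib, at 9.80. Canertinib itself lay nearest to the JAK2 inhibitor TG101348 (8.79), followed by Afatinib. After Neratinib, the nearest to Lapatinib were PAC1, KU60019 and Pazopanib (8.97 to 9.71), and after Lapatinib the nearest to Neratinib were AZD5363, which inhibits AKT, ZSTK474 and GDC0941, which inhibit PI3 kinase (9.50 to 10.7). Both Afatinib and Canertinib also had GDC0941 and Ciclopirox near (10.1 to 14.1). Gefitinib lay nearest to Trifluoperazine (7.51), Mdivi1 and Olaparib, and Erlotinib to TubastatinA (9.81), KU55933 and EX527, with Gefitinib only at rank 21 (12.1). The medians over all other compounds were 17.7 to 27.5.

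The 11 targeted genes of the pool encode stress response factors and a transporter, and their sgRNAs were compared with the non-targeting sgNT of the same line. KEAP1 is a cysteine-rich sensor of electrophiles that holds NRF2, the product of NFE2L2, at a low level. Their guides are shown because a covalent inhibitor is itself an electrophile, with the 12 bases next to the PAM in capitals.
sgKEAP1: cagcaccgTTCATGACGTGG
sgNFE2L2: cacatccaGTCAGAAACCAG
In the RefSeq annotation of GRCh38.p14 KEAP1 lies on chromosome 19 at 10486125 to 10503356 and NFE2L2 on chromosome 2 at 177230303 to 177264727. The position of the guides within these genes was not determined here. Of the 30 line and compound combinations 23 passed the methods' criteria for testing, with 18 tests of sgKEAP1 and 23 of sgNFE2L2. The AUC difference from sgNT ranged from -48.4 to 32.9 for sgKEAP1 (median 8.23 in 12 covalent and 8.26 in 6 reversible combinations) and from -52.8 to 32.9 for sgNFE2L2 (median 3.91 in 15 and -2.54 in 8). Of these, 1 passed the methods' rule of a difference of 25 with an unadjusted p under 0.05, sgKEAP1 with Canertinib in BT-20 (221.2 and 224.6, against 193.6 and 186.4 for sgNT), and its adjusted p was 0.696 (limma).

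Over all 11 genes 7 tests (2.88%) passed the methods' rule, 1 as sensitive and 6 as resistant, against 3.57% over all compounds. None had an adjusted p under 0.05 (limma), where 17 had an unadjusted p under 0.05. With limma's unadjusted p in place of that of the methods' t test, 17 passed the rule in place of 7, and with the replicate block added 24. The larger part of this rise thus came with the change of test and not with the block. The share over all compounds rose to similar levels in both steps, so the rise was not particular to these inhibitors. With the block 1 kept an adjusted p under 0.05. This was sgSLC35F2 with Canertinib in ZR-75-1, where the AUC was 138.2 and 99.7 against 273.9 and 237.8 for sgNT, a difference of -137 (95% interval -194 to -80.1; adjusted p = 0.0583 without and 0.0359 with the block). SLC35F2 encodes a transporter known for the uptake of the compound YM155. The difference was the lowest of all compounds fitted for this sgRNA and line, whose median was -1.32. The 2 lowest doses carried it: sgSLC35F2 was at 35.8% and 67.9% at 10 nM and 31.9% and 16.5% at 100 nM, where sgNT was at 133.4% and 100.8% and then 128.6% and 97.7%, but 48% and 24.7% at 10000 nM, beside 48.2% and 34.2% for sgNT. In the 96 DMSO wells the relative cell number of this population ranged from 15.9% to 225.9% (SD 39.1%). The part of this spread, or of the high sgNT values, in the difference was not tested. The other differences past the methods' rule were upward, with Canertinib in BT-20 for sgATF3 (28.98) and sgATF4 (33.7), with Canertinib in MDA-MB-231 for sgSLC35F2 (30.4), and with Neratinib in ZR-75-1 for sgATF3 (61.5) and sgATF6 (66.9). With Canertinib in BT-20 all 11 sgRNAs had a higher mean AUC than sgNT, by 9.96 (sgATF6) to 47.2 (sgXBP1), so the 3 calls there share a low sgNT reference. ATF3, ATF4 and ATF6 encode transcription factors of the unfolded protein and integrated stress responses.

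The fall of SKBR3 was shared by its sgRNAs. With Afatinib at 100 nM the 12 sgRNAs of SKBR3 lay between 29.4% and 41.4%, and with Neratinib at 1000 nM between 19.5% and 32%. With Erlotinib at 1000 nM they lay between 77.1% and 102.8%, and with Lapatinib between 35.1% and 64.9%. In HCC-38 with Canertinib at 10000 nM the range was 6.79% to 13.4%, against 83.1% to 106.3% with Gefitinib.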

How the data were processed

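The authors deposited, well by well, read counts of every pair of a cell line barcode and an sgRNA barcode. The reads were demultiplexed with bcl2fastq per the labels, up to 1 mismatch was allowed in either barcode, and the counts were neither aligned nor normalized. They also deposited relative cell numbers, a ratio (times 100) of the cells interpolated from the 5 standards of the well to the median of DMSO wells. Recomputing 83520 of these from the counts and all 96 DMSO wells gave differences of at most 5.32e-05 on the log2 scale. In ZR-75-1 2 sgRNAs, and in the fits 2 compounds, were left out by the exclusion criteria of the methods.

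Values of a line were averaged over its sgRNAs in each well, since wells are the replicates. limma 3.58.1 (R 4.3.3) was fitted per line over all compounds kept and the DMSO wells, or over compounds for AUC, and per compound for differences between lines, on the percent scale with the spread pooled, and Benjamini-Hochberg adjustment was over all compounds, except for pairs of the inhibitors and classes, where it was over those comparisons. Knockouts were tested by the methods' rule and by limma. Fits were tested on simulated data. Counting error of reads did not account for the difference within any of the 24 pairs of replicate wells (chi-square per degree of freedom of at least 47.9).

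Groups, doses and replicate numbers come from the labels, and plates from the order of the sequencing sample numbers, since the labels give none. Lines and sgRNAs with 1 replicate number share a well, so the replicate block pairs them by design, and in 7 of the 24 pairs all 5 lines deviated the same way. Different compounds share only the number: the correlation of their replicate deviations was -0.25 to 0.31 for compounds on the same plates. Alternatives were sgNT alone, all 12 sgRNAs in ZR-75-1, same-plate DMSO wells, a log2 scale (pseudocount 1%), correction for swapped barcodes, reads over summed standards, summed cells, the 6 inhibitors alone, the 2 compounds kept, replicate and plate blocks, edgeR 4.0.16 on counts, each replicate left out, and, after seeing the data, leaving out 10 nM. All inhibitors, lines, structurally related pairs, the largest pair difference of each line, sgKEAP1, sgNFE2L2 and interactions past the methods' rule are named. The inhibitors and lists were chosen with earlier results of these data known.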

Additional observations from a re-analysis of the deposited data

Results flagged for a closer look

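With these compounds the AUC of a line departed from that of the other 4 lines on average in a test of the difference itself (limma, adjusted p under 0.05), and each such difference is given here once as a value. SKBR3 was lower with Afatinib (-115), Neratinib (-104), Lapatinib (-64.3), Gefitinib (-51.2) and Canertinib (-50.7). HCC-38 was higher with Gefitinib (54.7), Afatinib (47.6), Neratinib (40.01), Canertinib (32.2) and Lapatinib (24.7). MDA-MB-231 was higher with Neratinib (40.4), Gefitinib (34.4) and Lapatinib (20.2), BT-20 with Lapatinib (26.3), and ZR-75-1 was lower with Gefitinib (-36.3). The lines shared their wells, and the 5 differences of a compound sum to 0. With sgNT alone only the SKBR3 differences of Afatinib and Neratinib passed, and none in the other lines.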

How the results depend on the processing

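Pooled over the alternative settings, most results kept their direction and their side of the threshold: 84.2% of the recomputed counts and class differences, and 81.4% of the values of named pairs and SKBR3 differences. The settings differed widely in this. With sgNT alone only 4 of 24 named pair and SKBR3 values stayed the same, against 21 of 24 with same-plate DMSO wells and 23 of 24 with the replicate block. With a replicate left out fewer stayed the same than with same-plate DMSO wells. The use of sgNT alone in place of the mean over sgRNAs, which rests on fewer cells, left 35 values below DMSO, 8 dose steps, 2 differences between lines, 6 pairs and 26 pairs at matched doses, and class differences of -32.6 in BT-20 (adjusted p = 0.0505), -32.9 in MDA-MB-231 (0.107) and -13.8 in ZR-75-1 (0.570). The shares of values below DMSO and of downward steps were then close to those over all compounds under the same setting. Most of the excess of the inhibitors over all compounds in these counts was thus lost. Of the 860 differences between lines over all compounds, 6 passed as lower and 6 as higher with sgNT alone. Under sgNT alone 3 of the 42 pairs and 3 of the 64 values called against DMSO changed sign, among them Neratinib minus Afatinib in MDA-MB-231 (-16.4; adjusted p = 0.817), and the cause was not tested. The class difference in ZR-75-1 also lost its call with all 12 sgRNAs (-18.6; adjusted p = 0.151), same-plate DMSO wells (-15.6; 0.158) and reads over summed standards (-19.1; 0.0641). With 1 of the replicates left out, which leaves a single well per dose, the counts ranged from 17 to 19 dose steps, 3 to 5 differences between lines, 17 to 26 pairs and 43 to 49 pairs at matched doses, and the class difference in ZR-75-1 from -19.9 to -19.7. Knockout interactions numbered 0 by limma with adjustment and 1 with the replicate block, and by the unadjusted p 17 and 24. By the unadjusted p the shares over all compounds were similar. The block left 61 values below DMSO, 28 steps, 42 pairs and a class difference of -76.0 in SKBR3, and gave 22 differences between lines and 71 pairs at matched doses. Differences between lines were also called more often over all compounds with the block. The SKBR3 differences of Afatinib and Neratinib passed under all 12 alternatives (highest adjusted p = 0.0213 and 0.0407), that of Lapatinib under 11, of Canertinib under 10 and of Gefitinib under 9, and that of Erlotinib, not called as reported, under 7. Without 10 nM, a choice made after seeing the data, 57 of 90 values lay below DMSO, with 22 of 60 steps, 16 differences between lines and 51 pairs. Within each pair of wells the chi-square per degree of freedom of the barcode reads was at least 47.9, beyond counting error. What limits the line averages and AUC values compared here was not tested.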
